A study of Mus musculus with 435 samples.

Results

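Sry, Sox9 and 4 genes that act beside them in testis determination (Sox8, Gadd45g, Map3k4 and Dmrt1) were followed in single somatic cells of XY mouse gonads. They were chosen by name as 6 of the 16459 genes in the values. The cells carried an NR5A1-eGFP reporter on a mixed strain background and were sorted for green fluorescence at 5 embryonic ages, namely E10.5 and E11.5 (the gonad before cords), then E12.5, E13.5 and, last, E16.5. Every cell came from an XY gonad with the reporter, so stage was what set the groups apart and no group lacked the reporter. The replicate was the chip capture: 1 at E10.5 and 2 at each later stage, 9 in all. Small chips were used except for capture 1 of E13.5, which was on a medium chip. After filtering, 396 of 400 cells were kept: 59 of E10.5, 93 of E11.5, 67 of E12.5, 112 of E13.5 and 65 of E16.5. The labels do not say whether the captures of a stage came from separate litters, so every p-value below measures the spread between captures only.

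In the mouse, Sry is the gene of the Y chromosome that switches the undecided gonad to a testis. It encodes a transcription factor with an HMG box, a DNA-binding domain shared by the SOX family, and it is transcribed for a short time in the precursors of the supporting cells, which become Sertoli cells. SRY raises Sox9, and SOX9 then keeps its own gene active and drives Sertoli genes such as Amh and Ptgds, with FGF9 and prostaglandin D2 as helpers. GADD45G binds and activates MAP3K4, a kinase that feeds the p38 MAP kinase pathway, and mice that lack either are slow or weak in switching on Sry. SOX8 is a close relative of SOX9 that can act in its place in Sertoli cells, and DMRT1 is a transcription factor that holds Sertoli cells in their male state after birth and is also present in germ cells.

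Sry lies at chrY:2662471-2663658 on the minus strand, Sox9 at chr11:112782224-112787760 on the plus strand and Sox8 at chr17:25565892-25570686 on the minus strand (GRCm38, GENCODE M21). Their coding sequences were compared because these 3 members belong to the same family and their reads could be confused. In the 90 coding bases where Sry and Sox9 were most alike, within the part that encodes the HMG box, 57 bases were the same in all 3 genes. They are in capitals below, 5′ to 3′, from the GENCODE M21 transcripts.
Sry: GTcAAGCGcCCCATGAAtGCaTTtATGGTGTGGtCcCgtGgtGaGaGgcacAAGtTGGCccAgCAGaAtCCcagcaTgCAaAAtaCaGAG
Sox9: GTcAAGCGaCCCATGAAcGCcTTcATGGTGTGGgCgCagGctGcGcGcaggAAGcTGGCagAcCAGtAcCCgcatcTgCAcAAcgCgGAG
Sox8: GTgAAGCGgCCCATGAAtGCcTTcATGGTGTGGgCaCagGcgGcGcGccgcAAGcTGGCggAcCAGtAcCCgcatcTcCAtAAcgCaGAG
The window covers coding bases 13 to 102 of Sry, 313 to 402 of Sox9 and 295 to 384 of Sox8. Sox9 and Sox8 had 79 of the 90 bases in common, Sry and Sox9 60, and Sry and Sox8 61. Over the whole transcripts, the longest run without a difference was 23 bases between Sox9 and Sox8 and 13 bases between Sry and either of them.

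The other members are Gadd45g at chr13:51846678-51848468 (plus strand), Map3k4 at chr17:12227621-12318796 (minus strand) and Dmrt1 at chr19:25505618-25604329 (plus strand). Sox8 overlaps 2810468N07Rik, and Map3k4 overlaps AC136921.1 and Gm24794, all on the opposite strand. Whether the authors counted reads by strand is not given in the sources used here, so reads of these pairs cannot be told apart.

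Values were RPKM (reads scaled to the length of the transcript and to the reads of the cell) as deposited, and a gene was called detected in a cell at 1 RPKM or more. The implied depth, read from the smallest steps of the values, had capture medians of 7.83 to 8.10 M reads at E10.5 and E13.5 and of 2.20 to 3.24 M reads at the other stages. At these medians 1 RPKM of Sry stood for 2.62 to 9.62 reads, and 1 RPKM of Sox9 for 9.11 to 33.5 reads. Intervals on shares are Wilson 95% intervals and cover counting error only. Among the markers of the sorted cells, eGFP was detected in 85.7% to 100% of the cells of a capture and Nr5a1 in 55.9% to 94.1%, and at least 1 of 5 other Y-linked genes in 379 of 396 cells (95.7%).

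Sry was found almost only at E11.5, in few cells, and at levels that differed widely between those cells. It was detected in 5 of 52 cells of the first E11.5 capture (9.62%, interval 4.18% to 20.6%) and in 5 of 41 cells of the second (12.2%, interval 5.32% to 25.5%). It was detected in 0 of 59 cells at E10.5, which allows a share of up to 5.08% by the limit of 3 cells (Wilson upper bound 6.11%), and in none of the later captures (0 of 67 cells at E12.5, 0 of 112 at E13.5 and 0 of 65 at E16.5). The 2 E11.5 captures were therefore alike in the share of cells with Sry, and the other 7 captures had none at this threshold. Y-linked genes other than Sry were detected in 91 of the 93 E11.5 cells, so absence of Sry in most of them did not go with absence of Y-linked reads.

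In the first E11.5 capture the 5 cells with Sry had 142, 123, 38.4, 1.59 and 1.22 RPKM, from 282, 393, 80, 5 and 4 reads. In the second capture they had 120, 80.8, 37.0, 9.94 and 2.41 RPKM, from 447, 313, 87, 47 and 7 reads. Of these 10 cells, 6 were at 10 RPKM or more, and the 3 with the fewest reads lay near the threshold. Below the threshold stood 1 more E11.5 cell with 2 reads (0.573 RPKM) and 1 E12.5 cell, in the second capture, with 3 reads (0.611 RPKM). That E12.5 cell was in the cluster led by germ cell genes and had 44.9 RPKM of Sox9 and 13.2 RPKM of Amh, the Sertoli hormone that makes the Müllerian duct regress.

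Averaged over all cells of a capture, Sry had 5.89 and 6.11 RPKM in the E11.5 captures, listed at 0 at E10.5. The log2 difference of Sry between the stages has no defined size against a group at 0, and its adjusted p was 0.156 (limma across all genes, Benjamini-Hochberg). In the E12.5 captures it had 0 and 0.0165 RPKM, and E12.5 was lower than E11.5 by a change of -2.79 ± 0.56 (SE) on the log2(mean RPKM + 1) scale, with an adjusted p of 0.231 by limma. By unadjusted p (0.000319) Sry ranked 17 among 12313 genes in that comparison, in which limma called 0% of genes (0 genes, against 961 at an unadjusted p under 0.05). Sry met the filter on low values only through the 2 E11.5 captures. Its rank and p therefore rest on the stage where it was high. Without that filter Sry passed in both comparisons (limma, adjusted p 0.00378 for E11.5 against E10.5 and 0.0386 for E12.5 against E11.5). Of the alternatives that did not leave out single captures, it passed in 1 of 4 and 1 of 5. The highest adjusted p among them were 0.373 and 0.390 (limma). The share of cells with Sry was 0% in the 6 captures of E12.5 and later and 7.27% ± 6.43 (SD) in the 3 captures of E10.5 and E11.5, and the exact two-sided permutation p of this difference was 0.0833. With every capture in it, the smallest p this test can give is 0.0119. Without the E10.5 capture the difference was -10.9 percentage points, with an exact permutation p of 0.0357. The early group then held only the E11.5 captures, the only ones with Sry at this threshold. That p is the smallest this reduced test can give, and leaving out a capture without Sry fixed it, so nothing is concluded from it.

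**Figure D1:**
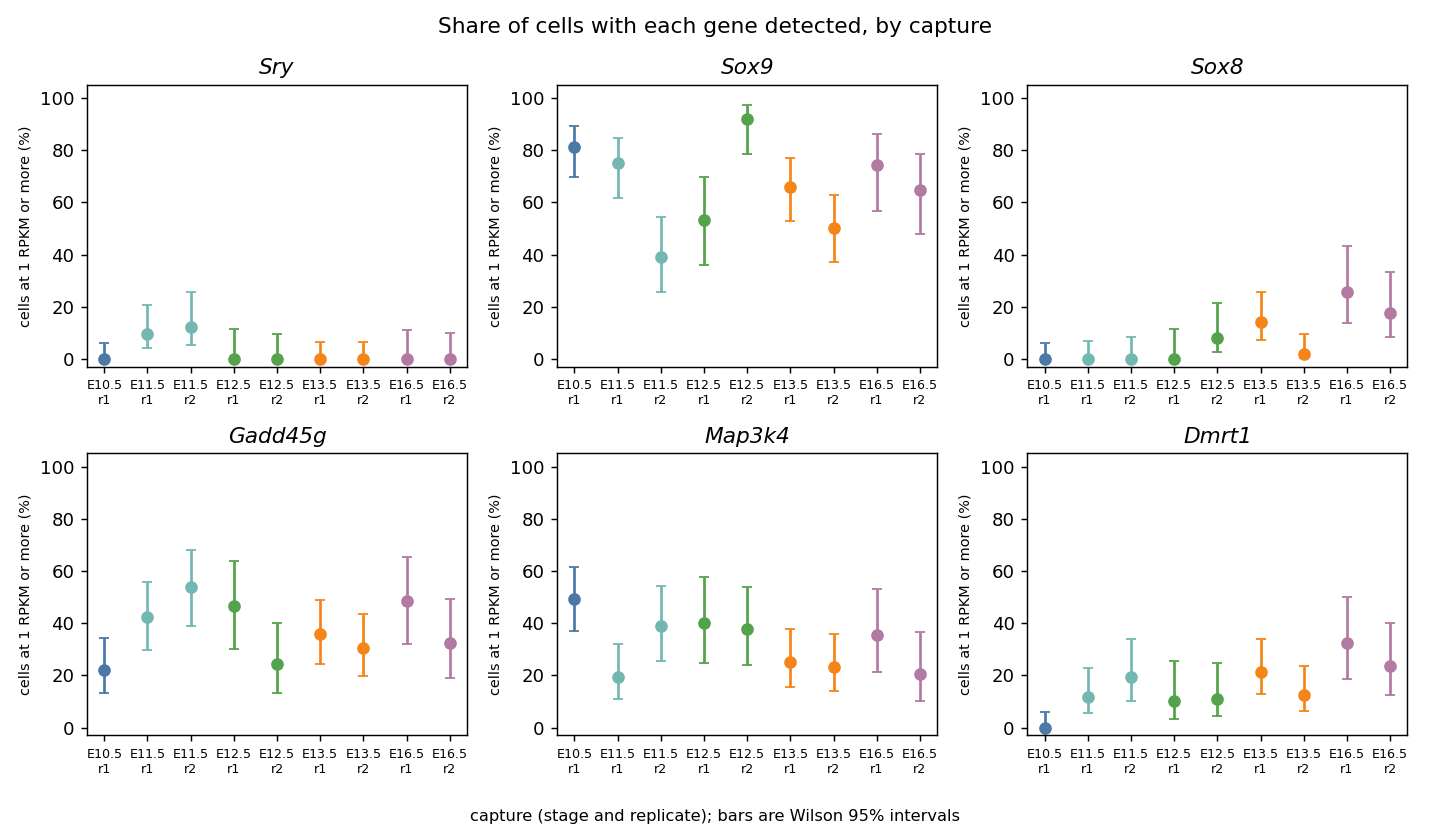
Share of cells with each of the 6 genes at 1 RPKM or more (vertical axis, %) in the 9 captures (horizontal axis, by stage), with Wilson 95% intervals. Sry is above 0 only in the 2 E11.5 captures, Sox8 is at 0% in the first 4 captures and at 25.8% and 17.6% in those of E16.5, and Sox9 varies between 39% and 91.9% with no order by stage.

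Cells with Sry mostly also held Sox9. Sox9 was detected in 9 of the 10 cells with Sry: in 5 of 5 cells with Sry in the first E11.5 capture, against 34 of 47 cells without it, and in 4 of 5 in the second, against 12 of 36. The median level of Sox9 was 155 RPKM in cells with Sry and 10.98 RPKM in the others in the first capture, and 410 RPKM in cells with Sry and 0.115 RPKM in the others in the second. Cells of 1 capture are not replicates, so no test was made of this difference. High Sox9 was not limited to cells in which Sry was read: of the 16 E11.5 cells with Sox9 at 100 RPKM or more, 7 had Sry detected and 9 had Sry listed at 0. The highest Sox9 value of the series, 1017 RPKM, was in a cell of the second E11.5 capture without Sry.

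The other members were less even in the cells with Sry. Gadd45g was detected in 8 of the 10, where the shares within each capture would give 4.80, and Map3k4 in 4, where they would give 2.91. Dmrt1 was detected in 4 of the 10, where the shares would give 1.55, at 96.4, 58.4, 39.6 and 1.36 RPKM. Gata4, a factor that binds and activates Sry in the mouse, was detected in all 10 cells, from 41.2 to 288 RPKM. Among the other cells it was detected in 20 of 47 in the first capture and in 22 of 36 in the second. Sox8 and Amh were at 0 in all 10 cells. Both were also at 0 in every other E11.5 cell, so neither set the cells with Sry apart. The median of eGFP was also higher in the cells with Sry, at 4831 RPKM in cells with Sry and 350 RPKM in the others in the first capture, and at 10602 RPKM in cells with Sry and 964 RPKM in the others in the second. Nr5a1 itself had medians of 113 RPKM in cells with Sry and 4.45 RPKM in the others in the first capture, and of 119 RPKM in cells with Sry and 12.51 RPKM in the others in the second. The part of reporter level in these differences was not tested.

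**Figure D2:**
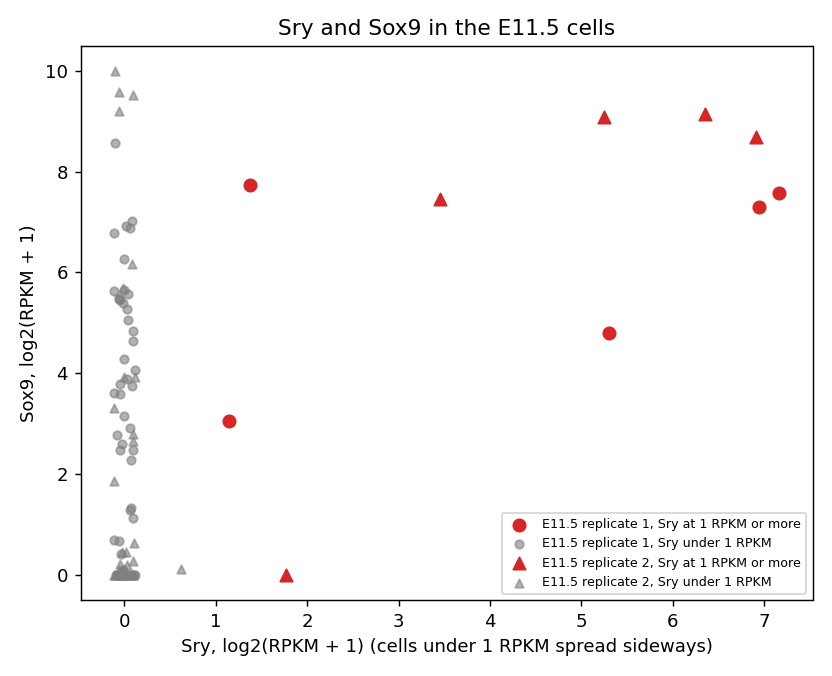
Sry (horizontal axis) and Sox9 (vertical axis) in the 93 E11.5 cells, both as log2(RPKM + 1), with red for cells with Sry at 1 RPKM or more, grey for the rest, circles for capture 1 and triangles for capture 2. Of the 10 cells with Sry, 9 have Sox9, and cells with high Sox9 and no Sry stand along the left edge.

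Sox9 was the most widely detected member, present already at E10.5, and its share of cells varied as much between captures of a stage as between stages. At E10.5 it was in 48 of 59 cells (81.4%), then in 75% and 39% of cells in the E11.5 captures, in 53.3% and 91.9% at E12.5, in 66.1% and 50% at E13.5 and in 74.2% and 64.7% at E16.5. The captures of E11.5 and of E12.5 lay further apart within their stage than the stage means did. In E12.5 capture 2, 12 of 37 cells were in a cluster led by germ cell genes (Dppa3, Dppa5a, Ddx4). Without those 12 cells, left out after the data were seen, Sox9 was still detected in 22 of 25 cells (88%).

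Among the cells with Sox9, the median level was 48.1 RPKM at E10.5, 27 and 123 RPKM at E11.5, 13.9 and 35.1 RPKM at E12.5, 60.9 and 52.99 RPKM at E13.5, and 138 and 83.6 RPKM at E16.5. The E11.5 capture with the lowest share of cells with Sox9 had the second highest median among them, 123 RPKM. Averaged over all cells, Sox9 had 53.03 ± 11.3 RPKM at E13.5, 60.3 RPKM at E10.5 (1 capture), 63.4 ± 19.4 RPKM at E12.5, 80.7 ± 57 RPKM at E11.5 and 82.7 ± 29.7 RPKM at E16.5 (SD, 2 captures each). No neighbours in this order differed beyond their spread.

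No comparison of stages called Sox9. The changes were 0.21 ± 0.61 for E11.5 against E10.5, -0.18 ± 0.50 for E12.5 against E11.5, 0.36 ± 0.50 for E16.5 against E12.5 and -0.20 ± 0.61 for E13.5 against E10.5 (log2, SE), with adjusted p of 1, 0.973, 0.819 and 0.987 by limma. Leaving out single captures turned the sign in each of the 4. The share of cells with Sox9 was 66.7% ± 15.2 (SD) in the 6 late captures and 65.1% ± 22.8 in the 3 early ones, with an exact permutation p of 0.917. Within the captures labelled with 10 M reads the late share was higher by 14.02 points, and within those labelled with 25 M reads it was lower by a difference of -23.3 points. The pooled value therefore averaged differences of opposite sign.

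**Figure D3:**
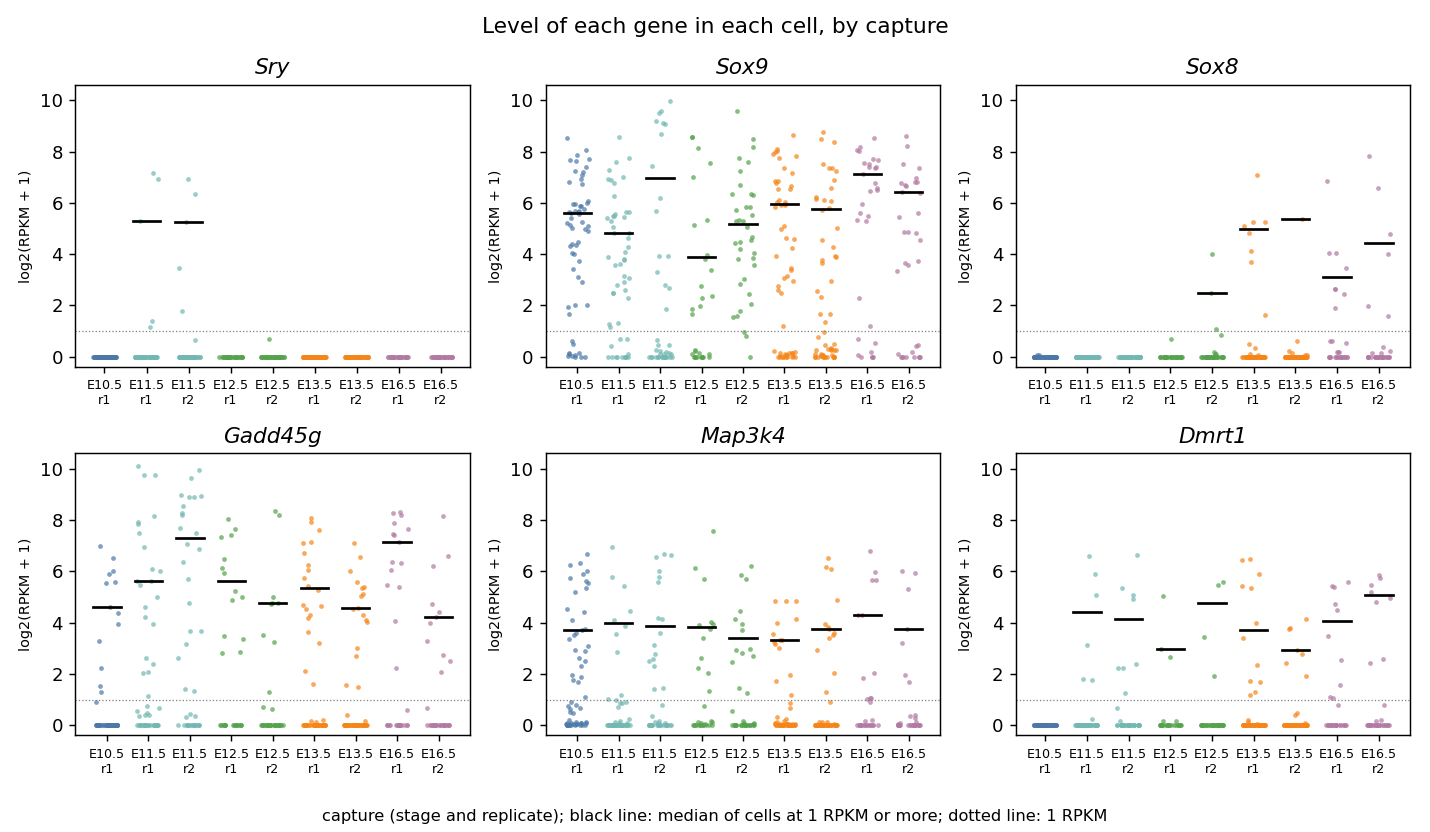
Level of each gene in each of the 396 cells (vertical axis, log2(RPKM + 1)) by capture (horizontal axis), with the median of detected cells as a black line and 1 RPKM as a dotted line. Sox9 spans the range from 0 to 1017 RPKM, Map3k4 keeps detected medians of 9.10 to 18.5 RPKM, and Sry points above the dotted line stand at E11.5.

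Sox8 came later than Sox9 and in few cells. It was detected in 0 of 59 cells at E10.5, 0 of 52 and 0 of 41 at E11.5, 0 of 30 and 3 of 37 at E12.5, 8 of 56 and 1 of 56 at E13.5, and 8 of 31 and 6 of 34 at E16.5. Its mean over all cells was 5.66 and 10.8 RPKM in the E16.5 captures and 0.0204 and 0.591 RPKM in the E12.5 captures. The change was 2.80 ± 0.74 (log2, SE), with an adjusted p of 0.133 by limma, so Sox8 did not pass, in a comparison that called 0.357% of genes. The E13.5 captures, with 5.35 and 0.732 RPKM, lay far from each other.

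The share of cells with Sox8 was 11.3% ± 9.88 (SD) in the late captures and 0% in the 3 early ones, with an exact permutation p of 0.0952. The late share was above the early one both in the captures labelled with 10 M reads (12.9 points) and in those with 25 M reads (8.04 points). When the cells were thinned to 1 M reads, an alternative chosen after the data were seen, the difference in cells with at least 1 read was 16.4 points and the exact p 0.0476. The share of all genes that pass in thinned cells was not computed. Of the 26 cells with Sox8, 25 also had Sox9, where the shares within each capture would give 18.4. The exception was an E13.5 cell with 134 RPKM of Sox8 and 0.0296 RPKM of Sox9.

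Gadd45g was detected at every stage, and its highest levels were at E11.5. Of the E10.5 cells 22.03% had it, then 42.3% and 53.7% in the E11.5 captures, 46.7% and 24.3% in those of E12.5, 35.7% and 30.4% in those of E13.5 and 48.4% and 32.4% at E16.5. Averaged over all cells it had 82.3 and 136 RPKM in the E11.5 captures and 8.56 RPKM in the E10.5 capture. This change of 3.48 ± 0.80 (log2, SE) had an adjusted p of 0.124 by limma, in a comparison that called 0.39% of genes. Without 1 capture the change ran from 3.12 to 3.84 (log2). Gadd45g passed when either E16.5 capture was left out, at an unchanged 3.48. Those captures are not compared here and enter only the shared estimate of the spread. Of the 5 alternatives that left out no capture, 0 passed, with adjusted p of 0.108 to 0.413 (limma). The E11.5 and E10.5 captures also differed in labelled depth, 10 M against 25 M reads, and stage and depth cannot be told apart in this comparison.

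In the E12.5 captures Gadd45g had 38.1 and 20.2 RPKM, with a change against E11.5 of -1.89 ± 0.65 (log2, SE) and an adjusted p of 0.525 by limma. The E16.5 captures lay far apart, at 69.9 and 16.3 RPKM. The cells of the first of them had a detected median of 142 RPKM, which among the late captures stood apart from a range of 17.6 to 48.97 RPKM. The share of cells with Gadd45g was 36.3% ± 9.47 (SD) in the late captures and 39.3% ± 16.02 in the early ones (exact permutation p 0.726), with differences of -10.1 points within 10 M reads and 11.002 points within 25 M reads.

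Map3k4, whose protein is the partner of GADD45G, was present at every stage, with detected medians of 9.10 to 18.5 RPKM over the captures. Of the E10.5 cells 49.2% had it, then 19.2% and 39% in the E11.5 captures, 40% and 37.8% in those of E12.5, 25% and 23.2% in those of E13.5 and 35.5% and 20.6% at E16.5. Its mean over all cells was 12.96 RPKM at E10.5, 5.62 and 13.1 RPKM at E11.5, 12.9 and 7.56 RPKM at E12.5, 3.14 and 6.11 RPKM at E13.5 and 10.3 and 5.60 RPKM at E16.5. E13.5 against E10.5 had a change of -1.36 ± 0.75 (log2, SE) with an adjusted p of 0.672 by limma, in a comparison that called 1.06% of genes. The share was 30.4% ± 8.37 (SD) in the late captures and 35.8% ± 15.2 in the early ones (exact permutation p 0.571), with differences of 4.35 points within 10 M reads and -25.0 points within 25 M reads.

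The values of Map3k4 took steps that correspond to a transcript of 5305 bases, while its exons span 10181 bases in GENCODE M21. Its level relative to the other members therefore depends on the annotation behind the deposited values. Map3k4 and Gadd45g were both detected in 52 cells, where the shares within each capture would give 44.7, and their mean correlation across the cells of a capture was 0.03 on log2(RPKM + 1), from -0.17 to 0.24 over the 9 captures.

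Dmrt1 was listed at 0 in every E10.5 cell and was detected in some cells of each later capture. It was detected in 6 of 52 and 8 of 41 cells at E11.5, 3 of 30 and 4 of 37 at E12.5, 12 of 56 and 7 of 56 at E13.5, and 10 of 31 and 8 of 34 at E16.5. Its mean over all cells was 3.85 and 5.21 RPKM at E11.5, 1.47 and 2.75 RPKM at E12.5, 6.26 and 1.12 RPKM at E13.5 and 6.35 and 7.55 RPKM at E16.5. E11.5 against E10.5 and E13.5 against E10.5 had adjusted p of 0.584 and 0.525 by limma, with no fold given against a capture at 0. E16.5 was above E12.5 by a change of 1.38 ± 0.72 (log2, SE), with an adjusted p of 0.485 by limma.

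The share of cells with Dmrt1 was 18.4% ± 8.84 (SD) in the late captures and 10.4% ± 9.81 in the early ones, with an exact permutation p of 0.262. It was higher late by 3.62 points within 10 M reads and 16.96 points within 25 M reads. Since Dmrt1 is also a germ cell gene, germ markers other than Kit were counted in its cells. Of the 58 cells with Dmrt1, 12 had at least 1 germ marker, 2 had at least 2 and 0 had at least 3, against 56, 11 and 8 of the 338 cells without it. The marker seen most was Sycp3, in 9 of the 58 cells and in 39 of the 338.

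Over the 4 stage comparisons, 0 of the 6 members were called by limma in any of them, and these comparisons called 0% to 1.06% of all genes. For the share of cells, late against early, an exact p under 0.05 was reached by 0 of the 6 members and by 9.84% of all genes tested. After adjustment over all 12313 genes the lowest adjusted p of that test was 0.404, so it called no gene.

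The members were seldom found all at once. Of the 396 cells, 71 had none of the 6 detected, 141 had 1, 102 had 2, 53 had 3, 23 had 4, 6 had 5 and 0 had 6. Correlations were computed for the 10 pairs without Sry, and of these the pair of Sox9 and Dmrt1 had the highest. Their mean correlation across the cells of a capture was 0.45, from 0.23 to 0.55, above 0 in 8 of 8 captures. The correlations share the depth and the detected genes of each cell and are given as a description. Gadd45g and Dmrt1 had a mean of 0.26, Sox8 and Dmrt1 0.25, Sox9 and Gadd45g 0.23 and Sox9 and Sox8 0.20.

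To see whether the other members were higher where Sox9 was present, cells with and without detected Sox9 were averaged within each capture and compared with limma, blocked by capture. The second E12.5 capture had 3 cells without Sox9 and was left out, so 8 captures entered. Dmrt1 was higher in cells with Sox9 and was the 1 called member of 5. Over all captures, with the second E12.5 capture included, Dmrt1 was detected in 57 of 263 cells with Sox9 and in 1 of 133 cells without. By capture, its mean level in cells with Sox9 and in cells without was 5.13 and 0 RPKM, then 11.54 and 1.17 RPKM, at E11.5, and 2.76 and 0 RPKM in E12.5 capture 1. At E13.5 the means were 9.47 RPKM with Sox9 and 0 without in capture 1, and 2.22 RPKM with Sox9 and 0.0153 RPKM without in capture 2. At E16.5 they were 8.57 RPKM with Sox9 and 0 without in capture 1, and 11.7 RPKM with Sox9 and 0.00975 RPKM without in capture 2.

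Dmrt1 was thus higher with Sox9 in 7 of 8 captures and at 0 in both groups at E10.5. The difference was 2.38 ± 0.45 (SE) on the log2(mean RPKM + 1) scale, and 4.73 with 0.1 added in place of 1. Its adjusted p was 0.0273 by limma, in a comparison that called 0.618% of genes, and 0.595% of genes as higher with Sox9. The call was lost without any 1 of the captures other than that of E10.5, in 7 of 8 such fits, with an adjusted p of up to 0.0908 (limma). Cells with Sox9 also had more genes detected (median 5781 with and 5399 without, all captures pooled). The median was higher with Sox9 in every capture. Among cells between the quartiles of genes detected in their capture, the difference was 2.02 and the adjusted p 0.472 (limma). That fit had fewer cells in each capture. It also lacked the first E16.5 capture, which kept 12 cells with Sox9 and 3 without. The part of these losses in the higher p was not tested. With no filter on low values, which Dmrt1 passes mostly through the groups with Sox9, the adjusted p was 0.117 (limma).

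All 65 Sertoli-like cells had Sox9, so these were 65 of the 263 cells with Sox9 and 0 of the 133 without. At E11.5, where no cell was Sertoli-like, Dmrt1 was detected in 13 of 55 cells with Sox9 and in 1 of 38 cells without. The cell with Dmrt1 but no Sox9, in the second E11.5 capture, had 29.1 RPKM of Dmrt1 and Sox9 listed at 0.

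The other 4 members did not pass this comparison. Gadd45g had a difference of 1.06 ± 0.53 (adjusted p 0.486) and was higher with Sox9 in 6 of 8 captures. Sox8 had 0.99 ± 0.52 (adjusted p 0.502) and was higher in 5 of 8, lower in 1 and at 0 in 2. Sry had 0.88 ± 0.48 (adjusted p 0.521) and was higher in the 2 E11.5 captures and at 0 in the other 6. It met the filter on low values only through the E11.5 groups with Sox9, so its p rests on the groups where it was high. Map3k4 had 0.71 ± 0.46 (adjusted p 0.596) and was higher in 4 of 8 captures and lower in 4. All are log2(mean RPKM + 1) differences with SE and adjusted p by limma.

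**Figure D4:**
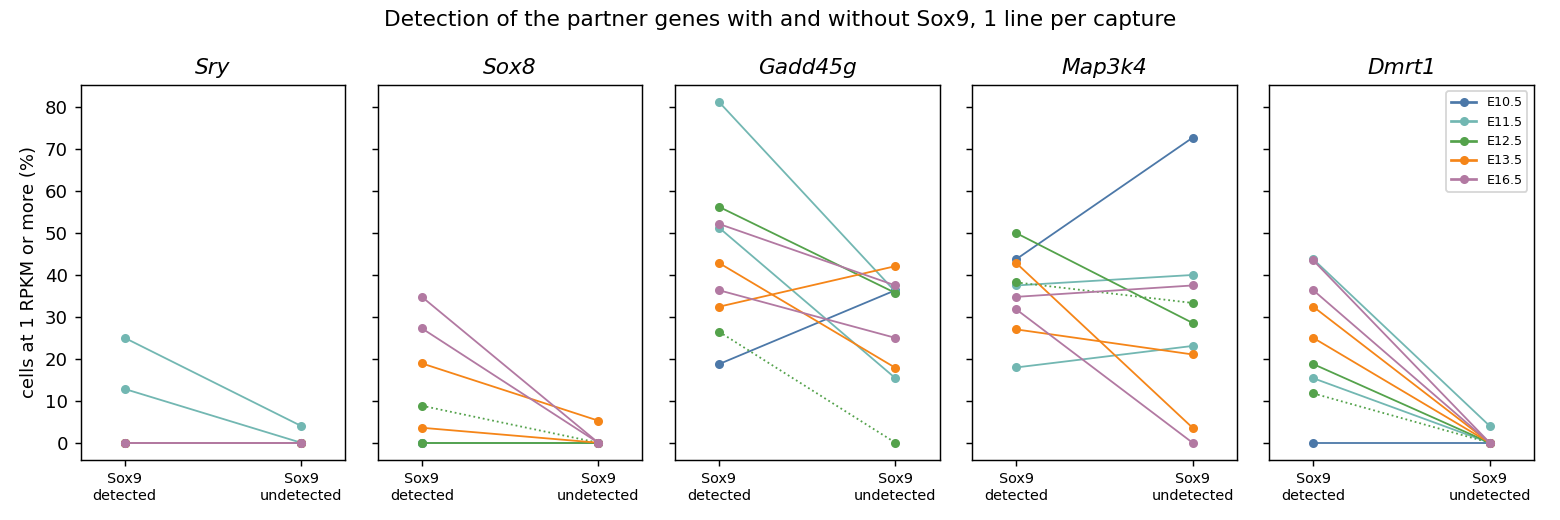
Share of cells with each partner gene at 1 RPKM or more (vertical axis, %) in cells with Sox9 detected (left) and undetected (right), 1 line per capture coloured by stage; the dotted line is the E12.5 capture with 3 undetected cells. The Dmrt1 lines end at or near 0 on the right in every capture, while those of Map3k4 run both ways.

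Genes of the same pathway gave a frame for these values. They were taken from lists of known genes. In the comparison of cells with and without Sox9, 5 of the 18 partners, targets and maintenance genes of Sox9 were called higher, against 0.595% of all genes. The median difference was 2.07 over the list and 0.12 over all genes. The 5 are given here with their differences. They were Cst9, a cystatin of Sertoli cells, at 5.43 ± 1.12 (adjusted p 0.0449), Ptgds, the prostaglandin D2 synthase, at 5.27 ± 0.85 (adjusted p 0.0117), Aard at 4.20 ± 0.67 (adjusted p 0.0117), Defb19, a beta-defensin, at 3.52 ± 0.56 (adjusted p 0.0117) and Vnn1, a pantetheinase, at 3.03 ± 0.40 (adjusted p 0.00332, limma). With no filter on low values none of the 5 passed (adjusted p 0.271 for Cst9, 0.162 for Ptgds and Defb19, 0.147 for Aard and 0.101 for Vnn1), nor did any among cells between the quartiles of genes detected (0.258 for Cst9, 0.412 for Ptgds and Vnn1, 0.444 for Aard and Defb19; limma). With the mean of log2 values Cst9, Ptgds and Defb19 also did not pass (adjusted p 0.118, 0.130 and 0.116), and the call of Cst9 held in 2 of the 8 fits without 1 capture, with an adjusted p of up to 0.197 (limma). Of the 18 tested genes upstream of Sry, 0 were called, which is near the 0.618% called over all genes. Mapk14, the p38 alpha kinase downstream of Map3k4, had 0.99 ± 0.45 (adjusted p 0.431), and Cited2, a cofactor of WT1, had 0.94 ± 0.41 (adjusted p 0.409, limma).

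Of the 9 tested genes of the ovarian programme, 0 were called by Sox9 detection, and Wnt4, which opposes Sox9 in the gonad, had -0.68 ± 0.51 (adjusted p 0.657, limma). Of the 4 tested Y-linked genes other than Sry, 0 were called, and Ddx3y had 0.30 ± 0.27 (adjusted p 0.727, limma). With 0.618% of all genes called, counts of 0 in lists this short are near the share over all genes. The median differences were 0.03 over the genes upstream of Sry, -0.19 over the ovarian genes and 0.19 over the Y-linked genes.

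Between stages, Sox9 did not pass and some of its targets did; the difference between them was not tested. In E13.5 against E10.5, 4 of the 18 genes of the Sox9 list were called higher: Defb19 at 8.44 ± 1.01 (adjusted p 0.00184), Ptgds at 7.15 ± 0.86 (adjusted p 0.00184), Aard at 5.91 ± 0.70 (adjusted p 0.00175) and Vnn1 at 4.50 ± 0.42 (adjusted p 0.000345, limma). With no filter on low values Defb19 and Ptgds did not pass (adjusted p 0.0905 and 0.0775), and with the mean of log2 values Defb19 and Aard did not, at changes of 3.52 and 2.43 (adjusted p 0.0719 and 0.0548, limma). The median change of the list was 3.01, and of all genes 0.08. E13.5 against E10.5 called 1.06% of all genes tested. In E16.5 against E12.5, 1 of the 18 was called, Fgf9, the growth factor that helps to keep Sox9 on, with 0.0171 RPKM at E16.5 and 18.1 RPKM at E12.5. Its change was -4.14 ± 0.72 (adjusted p 0.0355, limma), in a comparison that called 0.357% of all genes. The Fgf9 call held in 3 of 9 fits without 1 capture, with an adjusted p of up to 0.223, and was lost with no filter on low values (adjusted p 0.208, limma).

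In the same comparison Rspo1, an activator of WNT signalling in the ovary, had 0.122 RPKM at E16.5 and 10.47 RPKM at E12.5, a change of -3.32 ± 0.63 that did not pass (adjusted p 0.0545, limma) and that passed with a pseudocount of 0.1 (-5.58, adjusted p 0.0232, limma). Of the Sox9 list, 0 genes were called in E11.5 against E10.5 and in E12.5 against E11.5. Nr0b1, the gene of DAX1, had 24.6 RPKM at E11.5 and 0.00513 RPKM at E10.5 (4.46 ± 0.95, adjusted p 0.0916, limma). Cbln4 had 9.17 RPKM at E11.5 and 0.00345 RPKM at E10.5 (3.24 ± 0.82, adjusted p 0.193, limma). With a pseudocount of 0.1 both passed, Nr0b1 at 7.64 (adjusted p 0.0242) and Cbln4 at 6.36 (adjusted p 0.0111, limma). The sizes depend on the value added, because both genes were near 0 in the 1 E10.5 capture. Defb19 had 158 RPKM at E12.5 and 3.25 RPKM at E11.5 (4.86 ± 0.82, adjusted p 0.161, limma). Of the genes upstream of Sry, 0 of 18 were called in each of the 4 stage comparisons. Nr5a1 had 53.8 RPKM at E11.5 and 13.04 RPKM at E10.5 (1.96 ± 0.46, adjusted p 0.130), and Emx2, a homeobox gene of the early gonad, had 1.40 RPKM at E16.5 and 8.54 RPKM at E12.5 (-2.22 ± 0.76, adjusted p 0.245, limma), which passed with the mean of log2 values (-1.88, adjusted p 0.00798, limma). Of the 9 ovarian and 4 Y-linked genes tested, 0 were called between stages. Over all genes, E11.5 against E10.5 called 0.39%, E12.5 against E11.5 0%, E16.5 against E12.5 0.357% and E13.5 against E10.5 1.06%. The counts of 0 in these lists are near those shares.

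Where the members lay among the kinds of cells was read from clusters built on markers that did not include them, so these shares are descriptions. Of the 8 clusters, 3 could be named from their markers: 65 Sertoli-like cells, led by Cst12, Etd, Ptgds and Amh, 8 Leydig-like cells, led by Insl3 and Cyp17a1, and 18 cells like the early progenitors and coelomic epithelium, led by Olfr1256 and Krt19. The largest cluster, of 171 cells led by Pdlim3 and Acta2, a cluster of 114 cells led by Pnliprp2 and Sfrp2, which held 50 of the 59 E10.5 cells, and the cluster of 16 cells led by germ markers stayed unnamed. Possible doublets were counted as cells with at least 3 markers at 10 RPKM or more of each of 2 classes among Sertoli, Leydig, germ, endothelial and macrophage cells; 2 cells met this and were kept.

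Sox9 was detected in 65 of 65 Sertoli-like cells and in 198 of the 331 other cells (59.8%), with detected medians of 138 RPKM in Sertoli-like cells and 31.6 RPKM in the others. Dmrt1 was detected in 38 of 65 Sertoli-like cells (58.5%) and in 20 of the 331 others (6.04%), so 65.5% of all cells with Dmrt1 were Sertoli-like. Sox8 was detected in 18 of 65 (27.7%) and in 8 of the 331 others (2.42%), so 69.2% of its cells were Sertoli-like. Dmrt1 and Sox8 thus shared their main cluster with the Sertoli markers although neither was used to build it. Their levels when detected were not higher there. The detected median of Dmrt1 was 11.498 RPKM in Sertoli-like cells and 20.74 RPKM in the others. That of Sox8 was 15.01 RPKM in Sertoli-like cells and 21.48 RPKM in the others. The others included all cells of the earliest stages, where no cell was Sertoli-like and none had Sox8. The part of stage in these shares was not tested. Of the 29 cells with 4 or 5 members detected, 18 were Sertoli-like.

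Gadd45g was spread more widely. It was detected in 40 of 65 Sertoli-like cells (61.5%), in 7 of 8 Leydig-like cells, in 37 of 114 cells of the Sfrp2 cluster and in 49 of 171 cells of the Acta2 cluster. Map3k4 was detected in 29 of 65 Sertoli-like cells (44.6%) and in 97 of the 331 others (29.3%). Sry was detected in 0 Sertoli-like cells, which were from E12.5 or later, in 9 cells of the Sfrp2 cluster and in 1 cell of the Acta2 cluster. Dmrt1 and Sox8 were detected in 0 of the 8 Leydig-like cells, and Sox9 in 3 of them.

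Within the Sertoli-like cells Sox9 had capture medians of 237 and 291 RPKM at E12.5 (4 and 5 cells), 95.5 and 174 RPKM at E13.5 (18 and 8 cells) and 166 and 110 RPKM at E16.5 (18 and 12 cells). The captures of E13.5 and E16.5 overlapped, and no test was made between stages. Dmrt1 was detected in 6 of 9, 15 of 26 and 17 of 30 of these cells, and Sox8 in 2 of 9, 6 of 26 and 10 of 30. The Dmrt1 shares by capture were 3 of 4 and 3 of 5 at E12.5, 9 of 18 and 6 of 8 at E13.5, and 10 of 18 and 7 of 12 at E16.5, a range that overlapped between the stages.

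**Figure D5:**
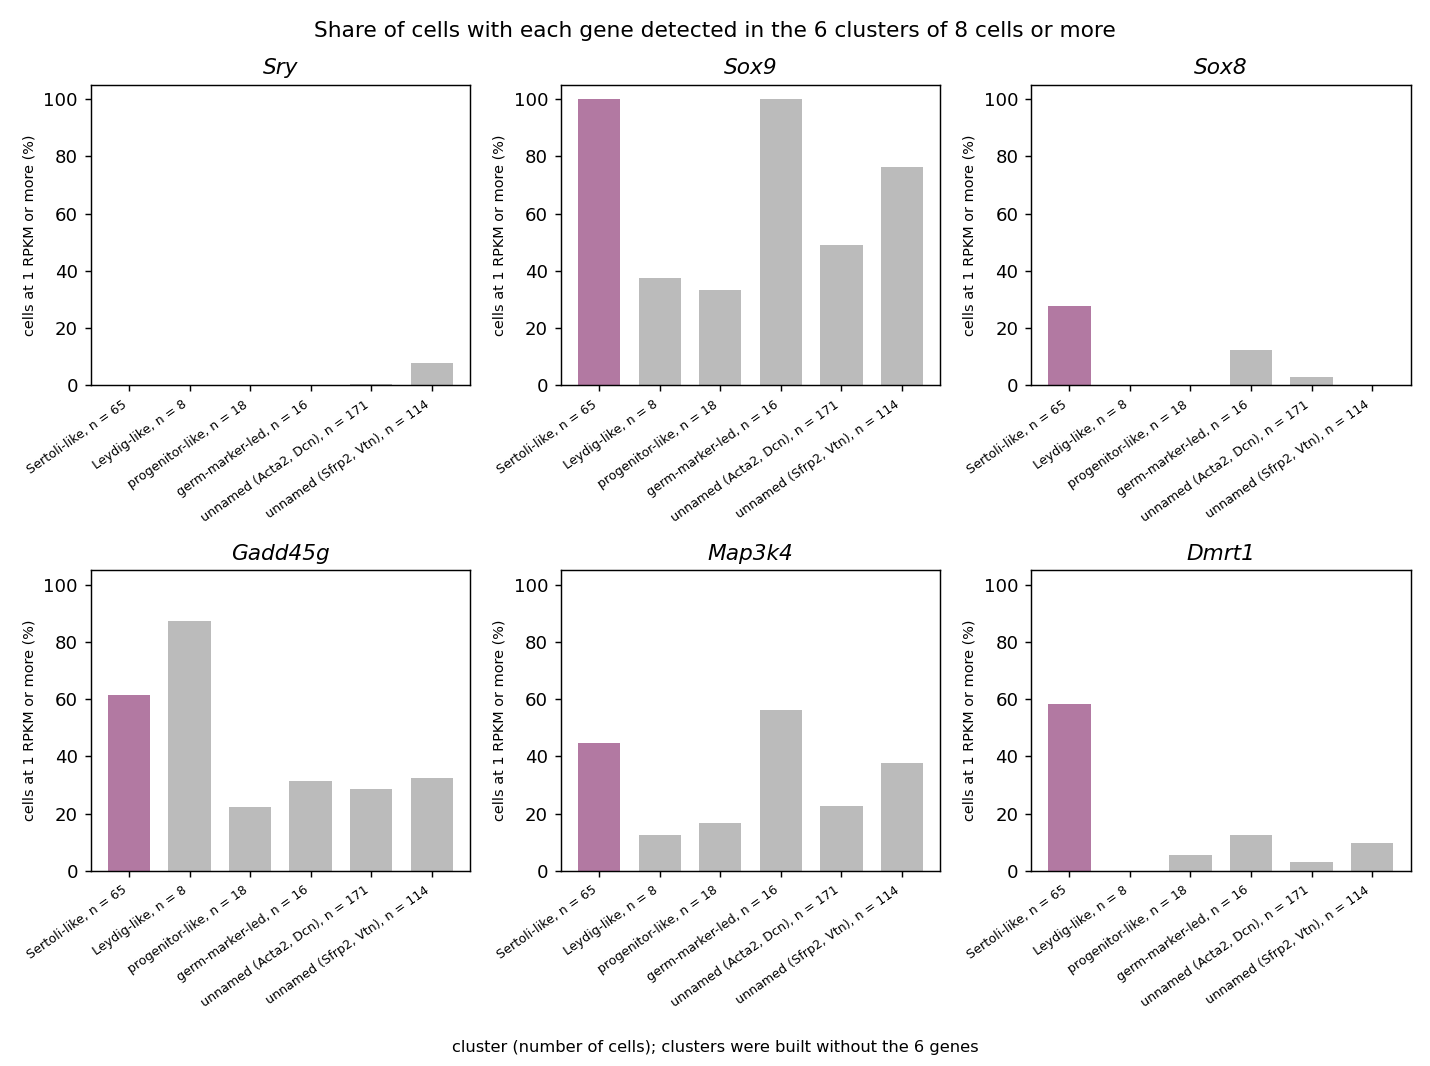
Share of cells with each gene at 1 RPKM or more (bars, %) in the 6 clusters of 8 cells or more, with the Sertoli-like cluster in purple. Dmrt1 (58.5%) and Sox8 (27.7%) stand highest in the Sertoli-like cluster, Sox9 is in every cell of it and of the cluster led by germ markers, and Sry is in the 2 unnamed clusters on the right.

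The genes most like each member were ranked by Pearson correlation across the cells of each capture, on log2(RPKM + 1), averaged over captures, among 9521 genes. Those most like Sox9 over 9 captures were Tmem184a, Gas7, Gpr56, Gstm2 and Aldh1a1, with mean correlations of 0.57, 0.57, 0.55, 0.55 and 0.54. Those most like Dmrt1 over 8 captures were Cited1 (0.57), Ptgds (0.56), Mro (0.53), Adamts16 (0.53) and Spp1 (0.52). The median over all candidates was 0.03 for Sox9 and 0.02 for Dmrt1. Gadd45g was less closely followed, with Mro (0.40), Tmprss13 (0.35), Akr1cl (0.34), Etnk2 (0.33) and Spint2 (0.31) over 9 captures. Mro was in the first 5 of both Dmrt1 and Gadd45g, and Ptgds, from the Sox9 list, in those of Dmrt1.

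For Sox8, over 3 captures, the first were DST (0.51), Tmcc3 (0.49), Mafk (0.48), Amhr2, the receptor for anti-Müllerian hormone (0.47), and Dsn1 (0.47). These captures held 8, 8 and 6 cells with Sox8, and 1963 of the candidates were above 0 in all 3 of them. For Map3k4 no gene was above Cenpo at 0.25. The rankings of all members come from sparse values and were not tested, so no finding is drawn from them. Sry was detected in at least 10% of cells in 1 capture and was not ranked.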

How the data were processed

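Single cells were sorted, captured on Fluidigm C1 chips and amplified with the SMARTer kit, per the labels' protocols. The authors deposited 1 table of RPKM values, for 400 of 435 labelled cells; the other 35 were not used here. The builds GRCm38.p3 and mm10 are named in the submitters' processing notes; no source used here gives the aligner, counter or annotation. The 6 genes, the lists and the tests were chosen with earlier results of these data known.

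A cell needed 3000 detected genes, which 3 did not reach. In E12.5 capture 2, wells 49 and 56 (correlation 0.998, next pair 0.701) were averaged and counted as 1 cell. RPKM times exonic length and implied depth gave whole reads for every value of the 6 genes up to 20 reads (within 0.05), after a change of length for Map3k4; this held for these genes and not for the table, so no count test was run. Stages were fitted with limma 3.58.1 (trend, robust) on log2(capture mean RPKM + 1), in 1 model of 9 captures and 5 stages with 4 residual degrees of freedom, over genes with a mean of 1 RPKM in 2 captures. E10.5 has 1 capture and is assumed to vary like the others. The comparisons by Sox9 detection needed 5 cells in each group with capture as a block, leaving 7 residual degrees of freedom. Adjustment was by Benjamini-Hochberg, and genes under 0.05 were called. For shares, the two-sided exact permutation test ran over the 84 splits of the captures. Clusters are by Ward linkage on fixed markers. The genes named beside the 6 were the 5 most correlated per gene, and per list and comparison the called genes, up to 4 by size, or else up to 2 of the largest changes; Vnn1 in the comparison by Sox9 detection and the choice among named list values were made after values were seen. The fits were tested on simulated data with known changes. Alternatives were another pseudocount, filter, scaling, mean of log values, threshold and cell filter, each capture left out, and thinning of cells. Depth differs with the labelled run (10 M or 25 M reads). Median detected genes were 6503, 6349 and 5663 in the captures of 25 M reads. In those of 10 M reads they were 4904.5 to 5668, so the ranges overlapped.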

Additional observations from a re-analysis of the deposited data

Results flagged for a closer look

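Among 16 sets of the 6 late captures (detected share, mean level and detected median of each gene where defined), 2 had a capture that stood apart from the rest by Dixon's test, which flags about 1 in 20 sets by chance. The mean of Sry was 0.0165 RPKM in the second E12.5 capture and 0 in the other late captures, and it came from 1 cell with 3 reads, in the cluster led by germ cell genes. With the other late captures at 0, any value above 0 would have been flagged, so the rate by chance does not apply to this set. The detected median of Gadd45g was 142 RPKM in the first E16.5 capture, against 17.6 to 48.97 RPKM in the other late captures.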

How the results depend on the processing

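Of 1162 values recomputed under an alternative, 1065 kept their direction and side of the threshold, 25 moved, 20 reversed, 11 newly passed and 41 no longer passed; the cause was not tested for any of them. Genes called in E11.5 against E10.5 numbered 48, and 98 with a pseudocount of 0.1, 205 with no filter, 25 with the mean of log2 values and 6 to 48 without 1 capture (27 and 6 without the first and second E11.5 captures). In E12.5 against E11.5 they numbered 0, and 5 with no filter and 0 to 1 without 1 capture (1 without the second E11.5 capture). In E16.5 against E12.5 they numbered 44, and 5 with no filter, 194 with the mean of log2 values and 4 to 48 without 1 capture (4 and 8 without the E12.5 captures, 10 and 5 without the E16.5 captures). In E13.5 against E10.5 they numbered 131, and 257 with no filter and 41 to 126 without 1 capture (41 without the first E13.5 capture). By Sox9 detection 79 genes were called, and 5 with no filter, 357 with the mean of log2 values, 131 with Sox9 at 10 RPKM or more, 1 between the quartiles of genes detected and 34 to 125 without 1 capture (125 without E10.5, 44 without the second E11.5 capture, 34 and 36 without those of E13.5, 41 and 45 without those of E16.5).

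Without 1 capture the log2 change of Sox9 ran from -0.57 to 0.99 (E11.5 against E10.5), -0.95 to 0.60 (E12.5 against E11.5), -0.01 to 0.73 (E16.5 against E12.5) and -0.41 to 0.02 (E13.5 against E10.5). With the mean of log2 values it was -1.38 in the first and 0.55 in the second of these. That of Map3k4 ran from -1.08 to 0.01, -0.36 to 0.72 and -0.73 to 0.05 in the first 3 comparisons. In E16.5 against E12.5 Gadd45g ran from -0.73 to 1.3 and Uty from -0.16 to 0.99. Ddx3y had -0.39 by Sox9 detection between the quartiles of genes detected. Late minus early shares without 1 capture ran from -10.9 to -4.81 points for Sry, -11.5 to 9.69 for Sox9, 8.37 to 13.53 for Sox8, -11.7 to 4.13 for Gadd45g and -13.7 to 1.23 for Map3k4, and Sox8 had 16.4 points in thinned cells. Between stages, no paired analysis was possible because replicate numbers only name captures within a stage; cells with and without Sox9 were compared within captures. With 9 captures and 4 residual degrees of freedom only large changes can pass, and shares of a few cells are limited by the 30 to 59 cells of a capture.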

Other observations

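The highest Sox8 value of all cells, 225 RPKM, was in an E16.5 cell of the second capture that formed a cluster of 1 cell, with 47.1 RPKM of Sox9 and 4.32 RPKM of Dmrt1. The cluster was led by Ephb1 and Sec1 and was left unnamed.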
